A study of Mus musculus with 56 samples.

Results

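The hippocampus of mice that carry a duplication of the Sult1a1-Spn interval was set against the hippocampus of wildtype mice in 12 of the 56 arrays of the series. These 12 arrays were chosen by their labels, which name the tissue as hippocampus and the genotype as duplication carrier (Dup/+, 4 arrays) or wildtype (wt, 8 arrays), and all probe sets were used. The series measured gene expression in liver and 3 brain regions (hippocampus, striatum and cerebellum) of mice with a deletion (Del/+), a duplication (Dup/+) or neither, to find which genes follow the copy number of the mouse segment that corresponds to human 16p11.2. Each array was hybridised with the RNA of 1 tissue from 1 mouse. All 12 mice were adult males on the C57BL/6N background. Dup/+ mice carried 1 chromosome with the engineered duplication, made by Cre recombination between loxP sites placed at the ends of the interval, and 1 normal chromosome, so that each gene of the interval was present in 3 copies, against 2 copies in wt mice. The duplication was present in every tissue and covered the whole interval, so that the part of any single gene cannot be told apart from that of its neighbours. Each array carries the name of its genotype and the number in its title, which was taken as the number of the mouse. Number 17 is wt in the hippocampus and liver titles but Del/+ in a cerebellum title, so that a number may not always stand for 1 mouse. The Dup/+ arrays came from mice 21, 47, 18 and 45.

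The interval lies on mouse chromosome 7 between 126672865 and 127145552 (GRCm38.p6). It holds genes of varied function, among them synaptic proteins, protein kinases and phosphatases, chromatin factors and enzymes of lipid and carbohydrate metabolism. In humans, loss and gain of the corresponding segment have been linked to developmental delay and autism. The hippocampus is a part of the forebrain needed for forming memories, with pyramidal neurons in the CA fields and granule cells in the dentate gyrus.

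Values are log2 signals of probe sets, so that a difference of 1 is a doubling. Differences are Dup/+ minus wt, with the standard error (SE) from the linear model of limma, and adjusted p-values follow Benjamini and Hochberg over the 19389 probe sets kept by a filter on low signal and low variance.

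The label of the tissue was checked against marker genes, and 1 array stood apart. The mean of 17 measured markers of striatal projection neurons was 8.54 on Dup/+ 47, against 6.04 to 6.05 on the other Dup/+ arrays and 5.88 to 6.27 on the wt arrays. All 17 markers were higher on Dup/+ 47 than on any of the other 11 hippocampus arrays. Markers of the hippocampal CA fields had a mean of 7.53 on Dup/+ 47, against 7.999 to 8.15 on the other Dup/+ arrays and 7.92 to 8.06 on the wt arrays. Dentate granule cell markers had a mean of 7.64 on Dup/+ 47, 7.75 to 8.17 on the other Dup/+ arrays and 7.61 to 8.03 on the wt arrays. In tissue RNA, fewer cells of a type and less RNA per cell cannot be told apart. The counts and the main results below are therefore also given without this array. Thalamus markers varied over both groups, from 6.40 to 7.79 on the Dup/+ arrays and from 6.36 to 8.02 on the wt arrays. Choroid plexus markers did so too, from 5.86 to 6.72 on the Dup/+ arrays and from 5.07 to 7.19 on the wt arrays.

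**Figure D1:**
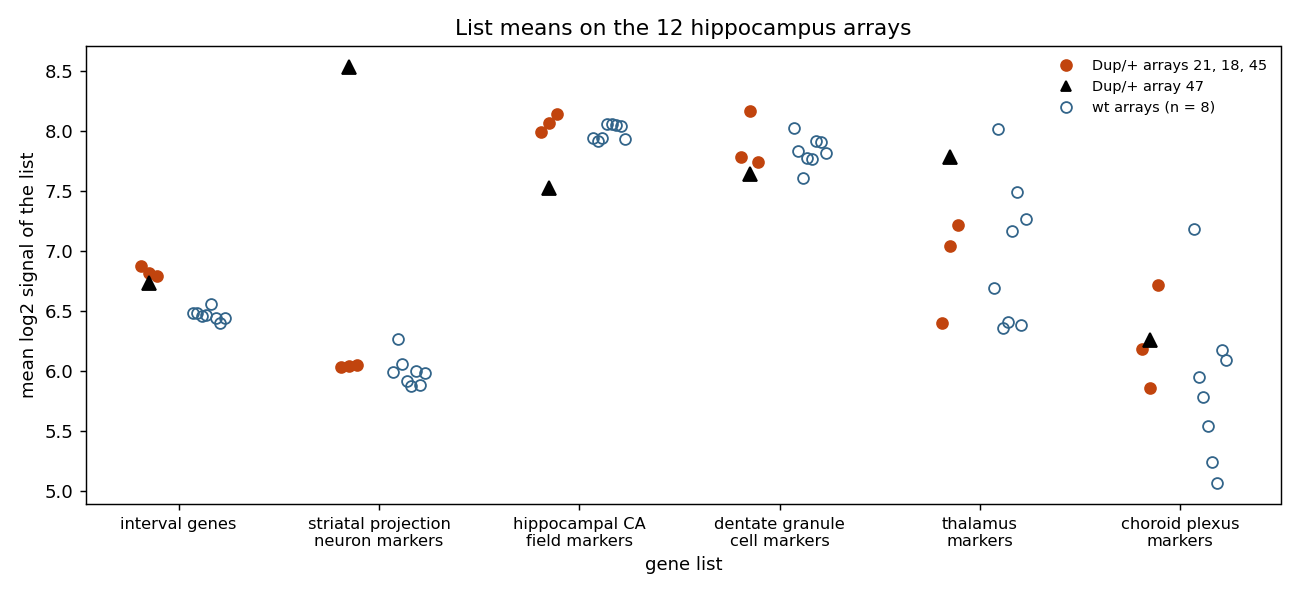
Mean log2 signal of 6 gene lists (x axis) on each hippocampus array (y axis), with Dup/+ arrays as filled points or, for mouse 47, a black triangle, and wt arrays as open circles. The interval genes of all 4 Dup/+ arrays lie above all 8 wt arrays, and Dup/+ 47 stands at 8.54 for striatal markers, where the other 11 arrays lie between 5.88 and 6.27.

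Most genes of the interval were higher in the Dup/+ hippocampus. Of the 31 genes of the interval, 25 had a probe set of their own, 4 more (Slx1b, Aldoa, Doc2a and Mvp) were listed only together with another gene, and the others were not analysed here. In all, 32 probe sets listed an interval gene, 27 of them 1 gene alone, and 28 of the 32 were kept by the filter. The mean over the 25 genes was 6.87, 6.74, 6.82 and 6.79 on Dup/+ 21, 47, 18 and 45, against a lowest of 6.40, a median of 6.47 and a highest of 6.56 on the wt arrays. No Dup/+ array overlapped the wt arrays. The Dup/+ mean was 6.81 ± 0.056 (SD, n = 4) and the wt mean 6.47 ± 0.046 (SD, n = 8), a difference of 0.34, or 1.26-fold on the linear scale. Without Dup/+ 47 the difference was 0.36.

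The labels name no plate, and plates were inferred here from the array numbers in the titles. Taken 24 to a plate, these numbers fall on 3 plates, and the difference was 0.32 within plate 1 (2 Dup/+, 2 wt), 0.34 within plate 2 (1 Dup/+, 4 wt) and 0.37 within plate 3 (1 Dup/+, 2 wt).

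Among the 28 kept probe sets of the interval, 26 had a higher mean in Dup/+ than in wt, and 24 of them had an unadjusted p under 0.05, against 2.33% of all kept probe sets in that direction. None was lower at that threshold, where the share over all kept probe sets was 2%, and 4.32% passed it in either direction. In 17 of the 28, all 4 Dup/+ arrays lay above all 8 wt arrays, against 0.309% of all kept probe sets. Without Dup/+ 47, 19 of the 28 did not overlap, against 0.614% of all, and 24 again had an unadjusted p under 0.05, against 1.99% of all, with none lower, against 2.19% of all. The median difference over the 28 was 0.45, beside 0.01 over all kept probe sets. At 5% FDR, 2 of the 28 passed, against 0.0103% of all kept probe sets, and at 10% FDR 5 passed, against 0.0258%. These calls included no probe set outside the interval. Without Dup/+ 47, 3 passed at 5% FDR (0.0155% of all) and 4 at 10% FDR (0.0206% of all). With the 4 Del/+ hippocampus arrays added to the fit only to share the estimate of spread, 10 passed at 5% FDR (0.0516% of all) and 13 at 10% FDR (0.067% of all).

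**Figure D2:**
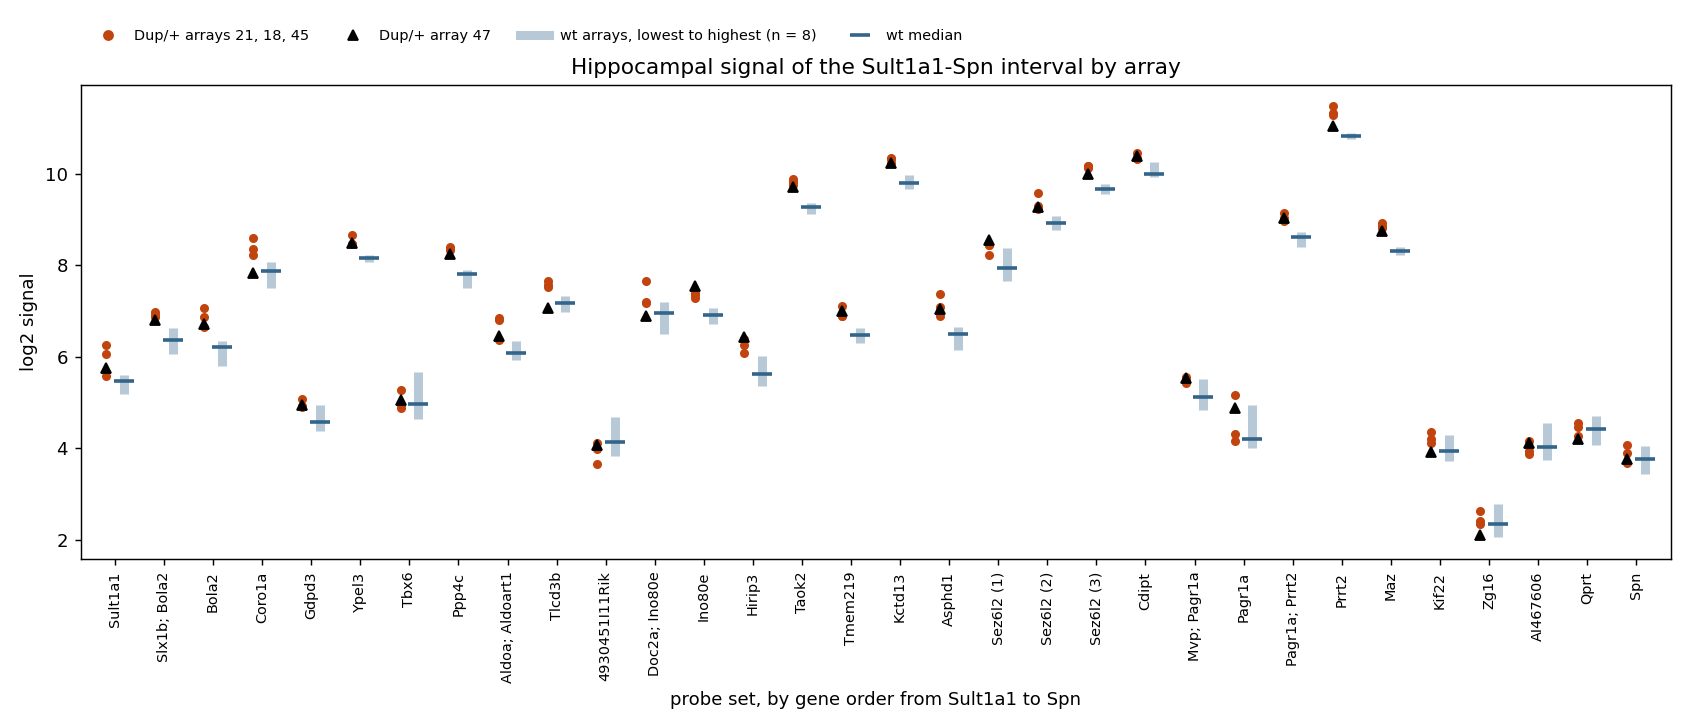
Log2 signal (y axis) of each probe set that lists an interval gene (x axis, in gene order), with the 4 Dup/+ arrays left of the wt arrays, which are drawn as a bar from lowest to highest with the median as a line. In 17 of the 28 kept probe sets all Dup/+ points lie above the wt bar, and Dup/+ 47 (black triangle) falls within the wt bar for Coro1a and Tlcd3b.

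The probe sets past 5% FDR were those of Taok2 and Maz. Taok2 encodes a serine/threonine kinase of the TAO family that acts upstream of p38 and JNK signalling and takes part in dendrite formation. Its signal was 9.82, 9.70, 9.88 and 9.75 on Dup/+ 21, 47, 18 and 45, against a lowest of 9.12, a median of 9.26 and a highest of 9.35 on the wt arrays. All Dup/+ arrays lay above all wt arrays. Taok2 rose by 0.54 (SE 0.07), a ratio of 1.46 with a 95% interval of 1.32 to 1.62 (adjusted p = 0.0355, limma), and by 0.57 without Dup/+ 47 (adjusted p = 0.0488).

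Maz encodes a zinc finger transcription factor that binds G-rich DNA. Its signal was 8.81, 8.74, 8.91 and 8.85 on Dup/+ 21, 47, 18 and 45, against a lowest of 8.21, a median of 8.30 and a highest of 8.39 on the wt arrays. The groups did not overlap. Maz rose by 0.53 (SE 0.07), a ratio of 1.44 with a 95% interval of 1.30 to 1.59 (adjusted p = 0.0355, limma), and by 0.56 without Dup/+ 47 (adjusted p = 0.0488). When any single array other than Dup/+ 47 was left out, neither gene passed at 5% FDR, and the adjusted p of both reached 0.189 at most. Neither passed with the plate as a block (adjusted p = 0.0958 for Taok2 and 0.0659 for Maz, limma) or with the filter worked out over the 12 arrays (adjusted p = 0.249 for both). The difference itself stayed between 0.51 and 0.57 for Taok2 and between 0.50 and 0.56 for Maz over these 12 fits.

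Past 10% FDR but not 5% FDR, at an adjusted p of 0.0679 each, were Tmem219, 1 of 3 probe sets of Sez6l2, and Ppp4c. Tmem219, a membrane receptor for IGFBP3, had 6.89, 7.003, 6.90 and 7.10 on Dup/+ 21, 47, 18 and 45, against 6.30, 6.46 and 6.62 as the lowest, median and highest wt values, a difference of 0.52 (SE 0.08). Sez6l2, a neuronal membrane protein, had 10.17, 9.9996, 10.12 and 10.15 on the same Dup/+ arrays, against 9.54, 9.66 and 9.78 as the lowest, median and highest wt values, a difference of 0.47 (SE 0.07). Ppp4c, the catalytic subunit of protein phosphatase 4, had 8.39, 8.25, 8.32 and 8.36 on the Dup/+ arrays, against 7.50, 7.80 and 7.90 as the lowest, median and highest wt values, a difference of 0.56 (SE 0.08). None of the 3 overlapped between groups. Without Dup/+ 47, only Sez6l2 of these stayed under 10% FDR (adjusted p = 0.0902), while Tmem219 had an adjusted p of 0.262 and Ppp4c of 0.184.

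Promoters of 3 of these genes are printed, since Taok2, Maz and Tmem219 had the smallest p of the interval, each as 300 bases around a transcription start that RefSeq gives for GRCm38.p6. A second start was listed for Maz and is not shown, and those used for Taok2 and Tmem219 lie inside the span of their genes, which end at 126886296 and 126928821 on the minus strand. Capitals mark GGGAGGG, a G-rich element of the kind that the Maz protein binds, GGGCGG, the core of the GC box bound by Sp1, and TGACGTCA, the cAMP response element, each searched on both strands with overlaps allowed.
Taok2, chr7:126884918-126885217, minus strand: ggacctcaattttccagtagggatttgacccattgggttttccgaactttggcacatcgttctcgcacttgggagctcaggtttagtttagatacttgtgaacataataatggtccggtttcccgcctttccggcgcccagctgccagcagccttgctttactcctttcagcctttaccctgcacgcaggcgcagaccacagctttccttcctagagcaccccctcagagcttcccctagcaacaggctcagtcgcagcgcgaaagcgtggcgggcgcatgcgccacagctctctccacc
Maz, chr7:127026956-127027255, minus strand: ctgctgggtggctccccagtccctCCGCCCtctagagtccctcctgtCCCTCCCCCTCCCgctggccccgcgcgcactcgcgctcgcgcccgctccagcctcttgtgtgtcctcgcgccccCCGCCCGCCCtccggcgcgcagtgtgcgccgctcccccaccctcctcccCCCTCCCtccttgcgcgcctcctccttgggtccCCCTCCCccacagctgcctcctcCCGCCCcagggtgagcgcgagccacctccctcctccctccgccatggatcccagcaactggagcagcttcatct
Tmem219, chr7:126898229-126898528, minus strand: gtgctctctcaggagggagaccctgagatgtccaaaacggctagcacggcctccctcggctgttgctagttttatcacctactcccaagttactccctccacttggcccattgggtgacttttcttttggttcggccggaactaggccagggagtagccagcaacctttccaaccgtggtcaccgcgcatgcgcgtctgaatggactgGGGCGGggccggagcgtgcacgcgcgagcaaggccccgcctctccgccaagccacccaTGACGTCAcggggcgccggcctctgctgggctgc
The Maz promoter held 4 matches to GGGAGGG and 4 to GGGCGG, all of them printed on the strand shown as CCCTCCC and CCGCCC. The Tmem219 promoter held 1 match to GGGCGG and 1 to TGACGTCA. The Taok2 promoter held none of the 3 in this window. Over all 32851 promoters of the table, 21.95% held GGGAGGG, 35.66% held GGGCGG and 1.79% held TGACGTCA, and a match is a description of the letters, not of a bound site.

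Among the genes of synapse and neuron in the interval was Prrt2, which encodes a presynaptic protein whose loss causes paroxysmal movement disorders in humans. It had 11.32, 11.03, 11.28 and 11.47 on Dup/+ 21, 47, 18 and 45, against 10.75, 10.82 and 10.88 as the lowest, median and highest wt values. The groups did not overlap, and Dup/+ 47 was the lowest of the Dup/+ arrays. The difference was 0.45 (SE 0.08, adjusted p = 0.138), and without Dup/+ 47 Prrt2 rose by 0.54 (adjusted p = 0.0488). A probe set that names both Pagr1a and Prrt2 differed by 0.45 (SE 0.07, adjusted p = 0.109), and by 0.45 without Dup/+ 47 (adjusted p = 0.294). The other 2 probe sets of Sez6l2 differed by 0.44 (adjusted p = 0.208) and 0.48 (adjusted p = 0.977), and the last of these overlapped between groups. Without Dup/+ 47 these differences were 0.46 and 0.43. Kctd13, an adaptor of the CUL3 ubiquitin ligase that acts on RhoA, had 10.23, 10.22, 10.33 and 10.32 on the Dup/+ arrays, against 9.65, 9.78 and 9.97 as the lowest, median and highest wt values. Kctd13 did not overlap and differed by 0.47 (SE 0.08, adjusted p = 0.133), and by 0.48 without Dup/+ 47 (adjusted p = 0.294). The probe set shared by Doc2a, a calcium sensor of transmitter release, and Ino80e had 7.64, 6.90, 7.17 and 7.20 on Dup/+ 21, 47, 18 and 45, against 6.50, 6.96 and 7.20 as the lowest, median and highest wt values. It overlapped, with Dup/+ 47 below the wt median, and differed by 0.33 (SE 0.14, unadjusted p = 0.0387), and by 0.44 without Dup/+ 47.

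None of the probe sets for genes of chromatin and DNA in the interval passed at 10% FDR. Ino80e, a subunit of the INO80 chromatin remodeller, had a probe set of its own at 7.35, 7.55, 7.39 and 7.28 on Dup/+ 21, 47, 18 and 45, against 6.70, 6.92 and 7.05 as the lowest, median and highest wt values. It differed by 0.50 (SE 0.09, adjusted p = 0.138). Hirip3, a protein that binds the histone chaperone HIRA, had 6.08, 6.42, 6.38 and 6.26 on the Dup/+ arrays, against 5.36, 5.62 and 6.03 as the lowest, median and highest wt values, a difference of 0.64 (SE 0.12, adjusted p = 0.146). Neither overlapped. The probe set listed for Slx1b, a subunit of a DNA nuclease, and Bola2 differed by 0.53 (SE 0.10, adjusted p = 0.146), also without overlap. Pagr1a, part of a histone methyltransferase complex, had 5.16, 4.87, 4.31 and 4.17 on Dup/+ 21, 47, 18 and 45, against 4.01, 4.19 and 4.94 as the lowest, median and highest wt values. Its groups overlapped (difference 0.31, SE 0.21, unadjusted p = 0.156). Without Dup/+ 47 the differences were 0.45 for Ino80e (adjusted p = 0.523), 0.60 for Hirip3 (adjusted p = 0.644), 0.56 for the probe set of Slx1b and Bola2 (adjusted p = 0.428) and 0.23 for Pagr1a.

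Genes of metabolism, membranes and protein handling included the largest ratio of the interval. Bola2, which takes part in iron-sulfur cluster assembly, had 7.07, 6.71, 6.64 and 6.86 on Dup/+ 21, 47, 18 and 45, against 5.80, 6.22 and 6.33 as the lowest, median and highest wt values. The groups did not overlap, and the difference was 0.66 (SE 0.11, adjusted p = 0.136), a ratio of 1.58. Cdipt, which makes phosphatidylinositol, had 10.46, 10.38, 10.32 and 10.34 on the Dup/+ arrays, against 9.91, 10.001 and 10.26 as the lowest, median and highest wt values, without overlap (difference 0.35, SE 0.07, adjusted p = 0.356). The probe set of Aldoa, a glycolytic enzyme, and its retrogene Aldoart1 differed by 0.51 (SE 0.11, adjusted p = 0.395), and that of Mvp, the major vault protein, and Pagr1a by 0.35 (SE 0.11, unadjusted p = 0.0087). Asphd1, a protein with an aspartate hydroxylase domain, differed by 0.61 (SE 0.11, adjusted p = 0.138), and Ypel3, of the yippee family, by 0.35 (SE 0.07, adjusted p = 0.206). Neither of these 2 overlapped. Gdpd3, a lysophospholipase D, differed by 0.33 (unadjusted p = 0.011) and Sult1a1, a phenol sulfotransferase, by 0.45 (unadjusted p = 0.0028), both with overlap. Without Dup/+ 47 the differences were 0.70 for Bola2 (adjusted p = 0.294), 0.35 for Cdipt, 0.63 for Asphd1, 0.37 for Ypel3, 0.33 for Gdpd3 and 0.50 for Sult1a1. They were 0.57 for the probe set of Aldoa and 0.34 for that of Mvp, and none of these 8 passed at 10% FDR in that fit.

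Dup/+ 47 was the lowest of the Dup/+ arrays in 11 of the 28 kept probe sets of the interval and the highest in 3, and in 8 it lay within or below the wt range. Coro1a, an actin-binding coronin, had 8.60, 7.84, 8.35 and 8.23 on Dup/+ 21, 47, 18 and 45, against 7.51, 7.86 and 8.08 as the lowest, median and highest wt values. Tlcd3b, which takes part in ceramide metabolism, had 7.58, 7.06, 7.65 and 7.52 on the same Dup/+ arrays, against 6.97, 7.16 and 7.33 as the lowest, median and highest wt values. In both genes the Dup/+ arrays other than 47 lay above all wt arrays and Dup/+ 47 lay below the wt median. In wt striatum the mean was 7.22 for Coro1a, against 7.83 in wt hippocampus, and for Tlcd3b 6.55, against 7.17. The difference of Coro1a was 0.42 with Dup/+ 47 and 0.56 without it, and that of Tlcd3b was 0.28 and 0.42, with no call at 5% FDR in either fit. The part of striatal RNA in these values was not tested.

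For the remaining genes of the interval no difference was detectable. Tbx6, a T-box transcription factor of the embryonic mesoderm, had 4.88, 5.06, 5.28 and 4.95 on Dup/+ 21, 47, 18 and 45, against 4.65, 4.97 and 5.67 as the lowest, median and highest wt values (difference 0.03, SE 0.16). Qprt, an enzyme of NAD synthesis, differed by -0.06 (SE 0.12) and AI467606 by -0.01 (SE 0.13). The filter removed Kif22, a kinesin of dividing cells (0.15, SE 0.13), Zg16, a lectin of secretory granules (-0.04, SE 0.16), 4930451I11Rik (-0.19, SE 0.16) and Spn, the leukocyte surface protein CD43 (0.10, SE 0.12). All 7 overlapped between groups. Without Dup/+ 47 the differences of Tbx6 and Qprt were 0.03 and 0.00070. As a measure of background, 95% of the wt hippocampus signals of the 1405 probe sets that list only an olfactory or vomeronasal receptor gene were at most 4.16. The wt means of Zg16 (2.41), Spn (3.75), Kif22 (3.99), AI467606 (4.04) and 4930451I11Rik (4.14) lay at or below this level, where a difference may not be detectable.

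With 3 copies against 2, the ratio of copies is 1.5. The ratios of the 28 kept probe sets ran from 0.962 to 1.58 with a median of 1.37, and 25 lay below 1.5. The 95% interval of the ratio held 1.5 in 21 and lay below it in 7. The one kept probe set at or below the background level, that of AI467606, is among these 7, and the other 27 had the same lowest and highest ratios and a median of 1.37. All of these ratios include Dup/+ 47, and the intervals were not worked out without it. Tlcd3b is also among the 7, and its difference was 0.28 with that array and 0.42 without it. Array signals from probes can understate ratios, and how far they do so here was not tested.

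**Figure D3:**
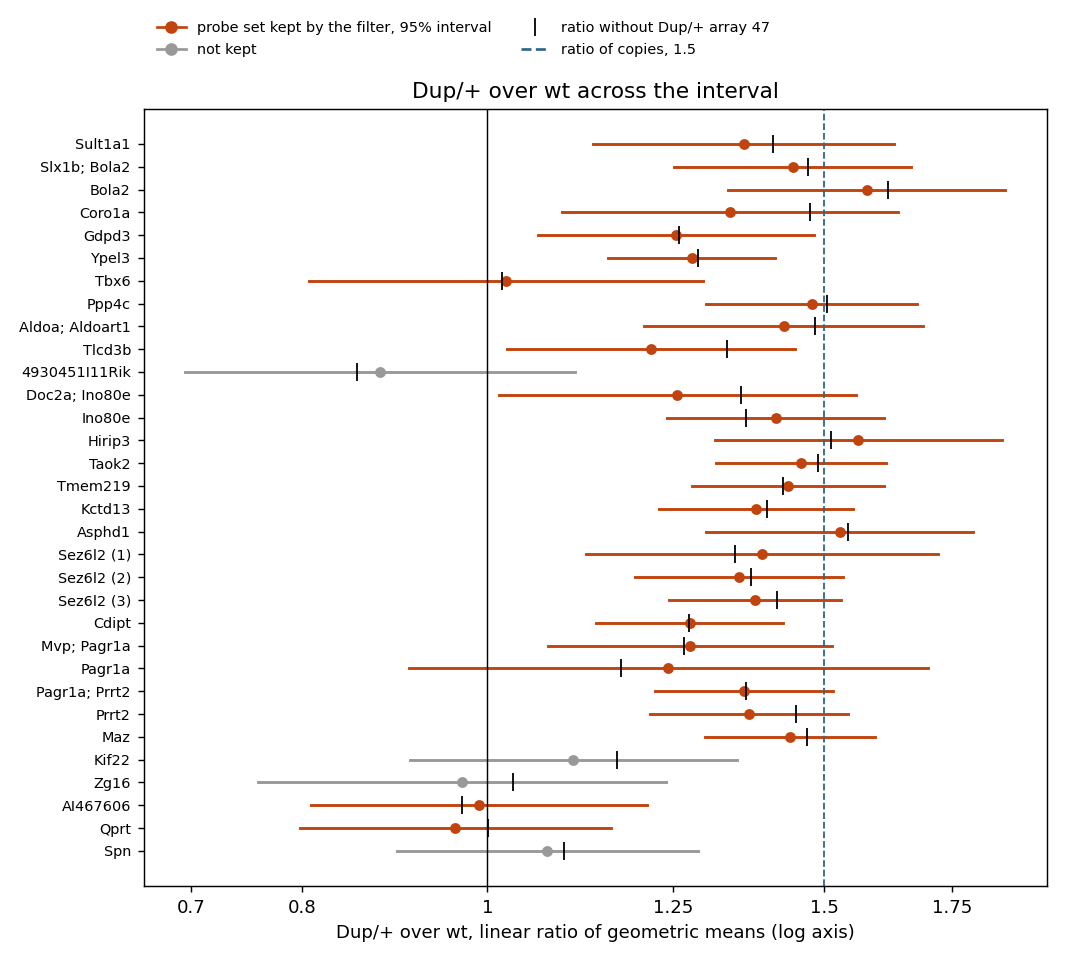
Ratio of Dup/+ over wt (x axis, log scale) for each interval probe set (y axis, in gene order), with its 95% interval, probe sets removed by the filter in grey, the ratio without Dup/+ 47 as a vertical tick and the ratio of copies, 1.5, as a dashed line. Most intervals lie to the right of 1, and 7 of the 28 kept probe sets lie wholly below 1.5.

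No difference past the test was found in the genes beside the interval. In the flanks, 36 probe sets of 34 genes had differences from -0.28 to 0.11, with a median of -0.01, and none had an unadjusted p under 0.05, also among the 14 kept. The nearest measured genes before Sult1a1 were Sgf29, a subunit of the SAGA complex that reads histone methylation (differences of 0.01 and -0.14 in 2 probe sets), Nupr1, a stress-response protein (-0.08), and Il27, a cytokine subunit (-0.19). The nearest after Spn were Cd2bp2, a splicing-related protein (0.02), Tbc1d10b, a Rab GTPase activator (-0.03), and Mylpf, a myosin light chain of fast muscle (-0.11).

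Outside the interval no gene passed in the Dup/+ hippocampus. Of 10966 kept probe sets that list a gene outside the interval, 0 were called at 5% or 10% FDR by limma with all 12 arrays, without Dup/+ 47, or with the Del/+ arrays in the fit. The smallest adjusted p was 0.306 with the 12 arrays and 0.791 without Dup/+ 47. At an unadjusted p under 0.05, 195 were higher and 151 lower, where the shares over all kept probe sets were 2.33% and 2%. Without Dup/+ 47 the counts were 166 and 170, where the shares over all were 1.99% and 2.19%. All 4 Dup/+ arrays lay above all wt arrays in 20 of these probe sets and below in 17, where the shares over all kept probe sets were 0.309% and 0.144%. Without Dup/+ 47 the other Dup/+ arrays lay above all wt arrays in 48 and below in 54. The shares over all were then 0.614% and 0.5%. The genes named next are the 10 of smallest p, and none of them passed. Choosing them by p in these arrays favours groups that lie apart, so that a lack of overlap among them is a description.

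Eid3, an inhibitor of EP300-dependent differentiation also found in the SMC5-SMC6 complex, had 5.05, 4.92, 4.83 and 4.75 on Dup/+ 21, 47, 18 and 45, against 4.15, 4.31 and 4.75 as the lowest, median and highest wt values. The groups did not overlap, although the lowest Dup/+ value and the highest wt value both rounded to 4.75. The difference was 0.53 (SE 0.11, adjusted p = 0.306) and 0.52 without Dup/+ 47. Gchfr, the feedback regulator of GTP cyclohydrolase in tetrahydrobiopterin synthesis, had 4.86, 4.83, 4.64 and 5.03 on the same Dup/+ arrays, against 4.18, 4.33 and 4.59 as the lowest, median and highest wt values (difference 0.47, SE 0.10, adjusted p = 0.356). Nrep, a neuronal protein linked to regeneration of axons, had 8.61, 8.41, 8.26 and 8.32 on the Dup/+ arrays, against 8.71, 8.77 and 9.15 as the lowest, median and highest wt values (difference -0.44, SE 0.10, adjusted p = 0.441). In Gchfr and Nrep the groups did not overlap either. The wt means of Eid3 (4.36) and Gchfr (4.37) lay little above the background level of 4.16, and the lowest wt value of Eid3 lay below it.

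Of the other 7 genes, 4 did not overlap between groups. They were Ccdc151, needed for docking of ciliary dynein (0.29, SE 0.07), Upk1b, a uroplakin tetraspanin (0.35, SE 0.09), Zfp575, a zinc finger protein (-0.34, SE 0.09), and Tspan12, a tetraspanin of Norrin signalling (0.23, SE 0.06). Being chosen for small p in these same arrays favours a lack of overlap, which is therefore only a description. The differences of these 4 were of similar size without Dup/+ 47, but that fit reuses the remaining arrays and is no separate check. Akr1c18, which inactivates progesterone, differed by -0.60 (SE 0.16), and by -0.48 without Dup/+ 47. Rftn2, of the raftlin family of membrane proteins, differed by -0.39 (SE 0.11) and Tshz3, a zinc finger transcription factor, by -0.46 (SE 0.13), and both overlapped through Dup/+ 21. All 3 were lowest on Dup/+ 47, and their wt striatum means were 3.40 for Akr1c18, 6.20 for Rftn2 and 7.73 for Tshz3, below their wt hippocampus medians of 5.22, 6.65 and 8.74. Without Dup/+ 47 the differences of Rftn2 and Tshz3 were -0.35 and -0.37.

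**Figure D4:**
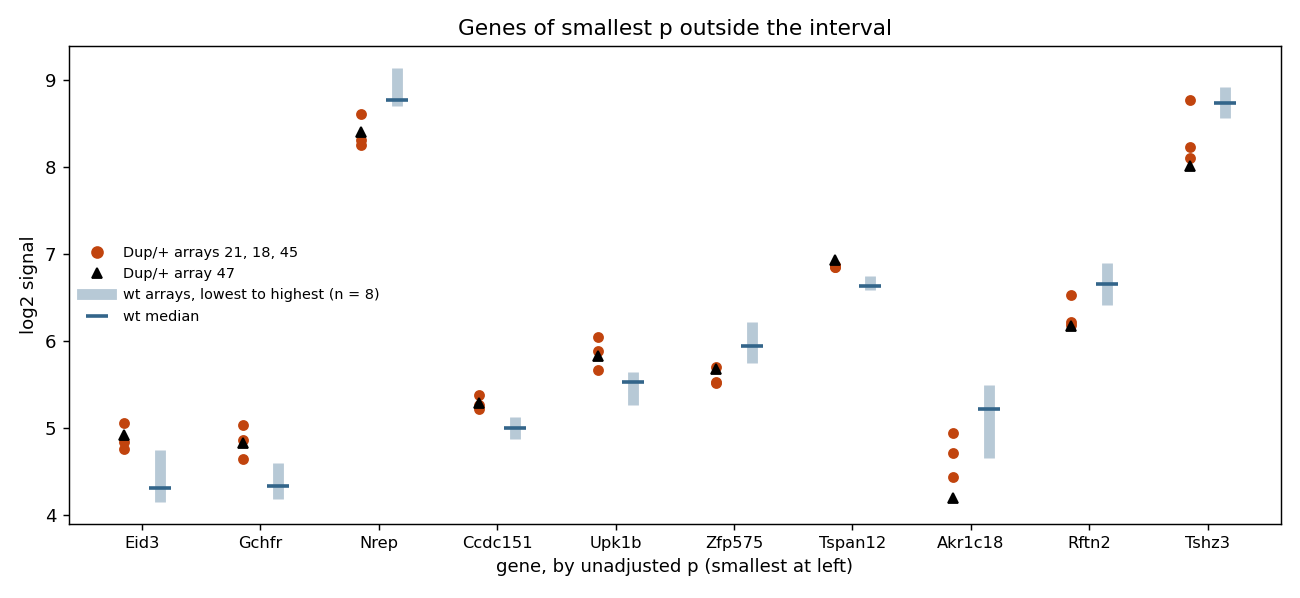
Log2 signal (y axis) of the 10 genes of smallest p outside the interval (x axis), with Dup/+ arrays as points or, for mouse 47, a black triangle, left of the wt arrays, drawn as a bar from lowest to highest with the median as a line. The groups lie apart for Eid3, Gchfr, Nrep, Ccdc151, Upk1b, Zfp575 and Tspan12, and no gene passed the test. The genes were chosen for small p in these same arrays, which favours such separation.

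The 10 genes of smallest p without Dup/+ 47 shared 3 members with these, namely Eid3, Gchfr and Nrep. The others were Btg1, an antiproliferative factor, Bmyc, a relative of Myc, Anp32b, a nuclear histone-binding protein, Defa40, an alpha-defensin of a family of near-identical genes, Gm20385, Sp7, a transcription factor of bone, and Ngfr, the p75 neurotrophin receptor. Btg1 had 6.94, 6.97 and 6.93 on Dup/+ 21, 18 and 45 and 7.33 on Dup/+ 47, against 7.13, 7.31 and 7.44 as the lowest, median and highest wt values. Its difference was -0.35 without Dup/+ 47 and -0.25 with it. Ngfr had 4.84, 4.82 and 4.92 on the same 3 arrays and 5.28 on Dup/+ 47, against 5.05, 5.16 and 5.29 as the lowest, median and highest wt values. In both genes the Dup/+ arrays other than 47 lay below all wt arrays and Dup/+ 47 lay above the wt median. Neither passed (adjusted p of at least 0.791 for all 10 in that fit).

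Gene lists for hippocampal function held few or no members under an unadjusted p of 0.05. The 47 kept probe sets of glutamate receptors and their scaffolds, which carry fast excitatory transmission, had a median difference of -0.00, beside 0.01 over all kept probe sets, and 0 reached an unadjusted p under 0.05 in either direction, against 2.33% higher and 2% lower over all. Grin3a, a subunit of the NMDA receptor, differed by 0.16 (unadjusted p = 0.0896), and Grin2c, another subunit, by -0.35 in 1 probe set (unadjusted p = 0.053) and 0.11 in the other. Without Dup/+ 47 these were the 2 members under 0.05, Grin3a at 0.22 and Grin2c at -0.41. Of 28 probe sets of long-term potentiation signalling, 0 had an unadjusted p under 0.05 (median 0.02). The smallest p there was that of Camkk2, a kinase that activates CaM kinases (0.13, unadjusted p = 0.0872). Of 35 probe sets of synaptic vesicle release, 0 did so either (median -0.00), and 1 was under 0.05 without Dup/+ 47, Syt4, a synaptotagmin (-0.30, and -0.41 without Dup/+ 47). Sv2c, a vesicle glycoprotein, had 6.99, 8.58, 7.32 and 6.996 on Dup/+ 21, 47, 18 and 45, against 6.66, 6.998 and 7.24 as the lowest, median and highest wt values. Its difference of 0.47 was 0.10 without Dup/+ 47.

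Activity-regulated immediate early genes, which neurons transcribe within minutes of firing, had 26 of 33 probe sets higher in the Dup/+ mean and a median difference of 0.10, and 0.15 without Dup/+ 47. Their mean per array was 7.19 on Dup/+ 47 and 7.24 to 7.399 on the other Dup/+ arrays, against 6.94 to 7.50 on the wt arrays, so that the groups overlapped. The only member with an unadjusted p under 0.05 was Gadd45b, a stress-response gene that acts on p38 signalling. Gadd45b had 7.65, 7.61, 7.55 and 7.45 on Dup/+ 21, 47, 18 and 45, against 6.88, 7.16 and 7.47 as the lowest, median and highest wt values. It differed by 0.37 (SE 0.11, adjusted p = 0.944), with an overlap through Dup/+ 45. Next came Sik1, a salt-inducible kinase (0.27, unadjusted p = 0.066), Inhba, an activin subunit (0.22, unadjusted p = 0.067), and Dusp1, a phosphatase of MAP kinases (0.33, unadjusted p = 0.068).

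Lists tied to genes of the interval were examined next, and their counts are to be read beside the 2.33% higher and 2% lower of all kept probe sets at an unadjusted p under 0.05. Of 16 kept probe sets of the p38 pathway, on which Taok2 acts, Gadd45b alone had an unadjusted p under 0.05, and the median difference was 0.02. Of 9 of the CUL3 ubiquitin ligase and BACURD genes, the partners of Kctd13, 0 did so (median 0.02). The list of growth factor feedback genes, named for genes that dampen receptor tyrosine kinase signalling, had 18 probe sets with a median of -0.01 and 1 under 0.05. That was Myc, a proto-oncogene transcription factor and not itself such an inhibitor. Myc had 5.62, 5.69, 5.54 and 5.67 on Dup/+ 21, 47, 18 and 45, against 5.68, 5.86 and 6.06 as the lowest, median and highest wt values (-0.24, SE 0.09, unadjusted p = 0.0183), with an overlap through Dup/+ 47. Among 19 probe sets of the AKT and mTOR pathway and 8 of CREB factors and coactivators, 0 had an unadjusted p under 0.05, with medians of -0.00 and -0.01.

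In the other lists the counts under an unadjusted p of 0.05 are again to be read beside 2.33% higher and 2% lower of all kept probe sets, and 1.99% and 2.19% without Dup/+ 47. Of the 17 striatal marker probe sets, 2 were higher under 0.05 with a median difference of 0.61, namely Lrrc10b (0.43, unadjusted p = 0.0169) and Adcy5, an adenylyl cyclase (0.55, unadjusted p = 0.0496). Without Dup/+ 47 none was and the median was 0.04. These markers are what singled out Dup/+ 47, so that the count with it is a description. Of 18 circadian clock probe sets, Hlf, a PAR bZIP factor of clock output, had 8.54, 8.70, 8.64 and 8.36 on Dup/+ 21, 47, 18 and 45, against 8.67, 8.81 and 8.94 as the lowest, median and highest wt values (-0.25, unadjusted p = 0.01). Of 13 interferon-stimulated probe sets, Ddx58, the RNA sensor RIG-I, had 5.90, 5.90, 6.19 and 6.08 on the Dup/+ arrays, against 6.17, 6.27 and 6.63 as the lowest, median and highest wt values (-0.29, unadjusted p = 0.011). Both genes overlapped between groups. Of 28 voltage-gated potassium channel probe sets, Kcna6 differed by -0.44 (unadjusted p = 0.048). Of 15 probe sets of the GABA synapse, Abat, which breaks down GABA, differed by 0.19 (unadjusted p = 0.049), and by 0.10 without Dup/+ 47. Of 14 microglia markers, Tmem119 differed by -0.17 without overlap (unadjusted p = 0.0483), and of 12 cortical layer marker probe sets Scnn1a differed by -0.37 (unadjusted p = 0.024). Ribosomal proteins (25 probe sets, median -0.02), the respiratory chain (6, -0.03), chaperones (14, -0.07) and neuropeptide precursors (22, 0.05) had 0 members under 0.05. The median of the neuropeptide precursors was -0.06 without Dup/+ 47, and their mean per array was 7.42 on Dup/+ 47 and 7.06 to 7.18 on the other Dup/+ arrays, against 7.10 to 7.17 on the wt arrays. Without Dup/+ 47, 1 ribosomal protein gene, Rpl3 (0.16), was under 0.05, while Abat, Tmem119 and Scnn1a were not.

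The array means of the other cell type lists overlapped between the groups. Oligodendrocyte and myelin markers were lower in the Dup/+ mean in 18 of 18 probe sets, with a median of -0.07, and of -0.13 without Dup/+ 47, and 0 had an unadjusted p under 0.05 in either fit. Their mean per array was 8.71 on Dup/+ 47 and 8.51 to 8.65 on the other Dup/+ arrays, against 8.49 to 8.87 on the wt arrays. Choroid plexus markers were higher in 13 of 13, with a median of 0.39 and 0 under 0.05. Ttr, the transthyretin of choroid plexus, had 12.29, 12.38, 11.72 and 12.63 on Dup/+ 21, 47, 18 and 45, against 9.22, 11.92 and 12.86 as the lowest, median and highest wt values. Astrocyte markers (14 probe sets, median 0.03), microglia markers (14, -0.01), endothelial and mural cell markers (10, -0.01) and interneuron markers (15, -0.04) had medians from -0.04 to 0.03, and the 1 kept blood cell marker, Slc4a1, differed by -0.03. Without Dup/+ 47, Nos1, the neuronal nitric oxide synthase of some interneurons, was under 0.05 (0.22), as was Fibcd1 among the CA field markers (0.26). The part of these cell types in any of the differences above was not tested.

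Dup/+ 47 carried striatal RNA markers at levels between those of wt hippocampus and wt striatum. Drd2, a dopamine receptor of striatal projection neurons, had 10.46 on Dup/+ 47, against 6.18 to 6.85 on the other Dup/+ arrays, 5.95 to 7.03 on the wt hippocampus arrays and 11.21 to 11.72 on the wt striatum arrays. Drd1, the other main dopamine receptor there, had 8.68 on Dup/+ 47, against 5.25 to 5.40 on the other Dup/+ arrays and 5.10 to 6.06 on the wt hippocampus arrays. Penk, the enkephalin precursor, had 11.38 on Dup/+ 47, against 8.14 to 8.32 on the other Dup/+ arrays and 7.95 to 8.37 on the wt hippocampus arrays. On the linear scale the 17 markers lay 24.1% to 66.3% of the way between the wt hippocampus mean and the wt striatum mean, with a median of 41.2%.

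**Figure D5:**
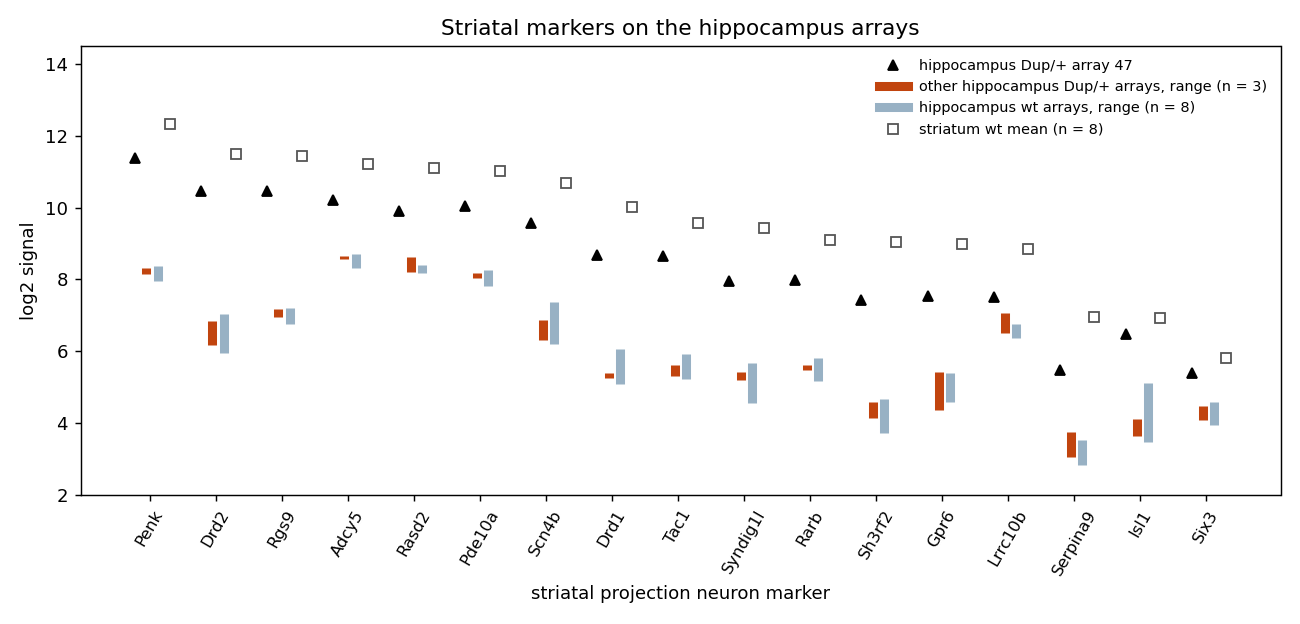
Log2 signal (y axis) of 17 striatal projection neuron markers (x axis) on Dup/+ 47 (black triangle), the other 3 Dup/+ hippocampus arrays and the 8 wt hippocampus arrays (bars from lowest to highest), with the mean of 8 wt striatum arrays as a square. Every triangle lies above both bars and below the square.

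The pattern was not limited to the listed markers. Of the 100 genes most above wt hippocampus in wt striatum, 100 were higher on Dup/+ 47 than on any other hippocampus array, and of the 100 most below it, 78 were lower, against 11.5% and 11.4% of all kept probe sets. Over the 10224 outside probe sets that list a single gene, the deviation of Dup/+ 47 from the wt mean correlated with wt striatum minus wt hippocampus at r = 0.71. For the other Dup/+ arrays r lay between -0.03 and 0.05, and for wt arrays between -0.06 and 0.09. These are correlations across genes of 1 array each, and genes are not independent replicates. The 17 listed markers, by which Dup/+ 47 was singled out, were not removed from the 100 or the 10224, so that these values are a description. Among the genes furthest below the other Dup/+ arrays on Dup/+ 47 were Fibcd1, a marker of the CA1 field (7.23, against 8.23 to 8.40 on the others), and Spink8 (6.23, against 7.06 to 7.24 on the others), and in wt hippocampus their lowest values were 7.89 and 6.54.

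The 10 genes furthest above the other Dup/+ arrays on Dup/+ 47 were Drd2, Alb, Drd1, Rgs9, Penk, Tac1, Mup3, Sh3rf2, Abi3bp and Scn4b. Rgs9, a regulator of dopamine receptor signalling, Tac1, the substance P precursor, Scn4b, a sodium channel subunit, and Sh3rf2 are on the striatal list. Alb, which encodes serum albumin, had 8.67 on Dup/+ 47, against 4.03 to 5.35 on the other Dup/+ arrays and 3.83 to 5.33 on the wt hippocampus arrays. Its range on the wt striatum arrays was 4.59 to 10.11, with a median of 5.81, and on the wt liver arrays, which were normalized apart from the brain arrays, it was 12.89 to 13.33. Mup3, a major urinary protein made by liver and one of a family of near-identical genes, had 6.43 on Dup/+ 47, against 2.33 to 3.55 on the other Dup/+ arrays and 2.59 to 4.07 on the wt hippocampus arrays. On the wt striatum arrays Mup3 ran from 3.19 to 7.28, with a median of 3.99, so that the highest of them lay above Dup/+ 47. Abi3bp, an extracellular matrix protein, had 8.36 on Dup/+ 47, against 4.93 to 5.55 on the other Dup/+ arrays and 4.84 to 5.72 on the wt hippocampus arrays. It was also above the wt striatum range of 7.68 to 8.03, so that Abi3bp was higher on Dup/+ 47 than on any wt array of hippocampus or striatum.

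The striatum array of mouse 47 was set beside the other striatum arrays in hippocampal markers. Its CA field marker mean was 6.54, where the other striatum Dup/+ arrays had 6.44 to 6.61 and the wt striatum arrays 6.34 to 6.69. Its dentate granule cell marker mean was 6.90, within the 6.76 to 6.92 of the other striatum Dup/+ arrays and above all wt striatum arrays, at 6.72 to 6.87.

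The difference between Dup/+ and wt was last set side by side for the brain regions, whose arrays share 1 normalization, with 12 striatum arrays (4 Dup/+, 8 wt) and 9 cerebellum arrays in 1 fit with those of hippocampus. The mean over the interval genes differed by 0.34 in hippocampus, 0.35 in striatum and 0.33 in cerebellum. No kept probe set was called for a difference between regions at 5% FDR (0% of 19389, limma), whether in the interval or outside it. At an unadjusted p under 0.05, 0 of the 28 interval probe sets differed between hippocampus and striatum, against 11.5% of all, and 2 between hippocampus and cerebellum, against 3.39% of all. Those 2 were Hirip3 and Tmem219, both with a larger Dup/+ minus wt difference in hippocampus, by 0.38 and 0.24. Without hippocampus Dup/+ 47 no probe set was called either at 5% FDR. At an unadjusted p under 0.05 in that fit, 2 of the 28 differed between hippocampus and striatum, against 9.32% of all, and 1 between hippocampus and cerebellum, against 3.35% of all. Bola2 differed more in hippocampus than in striatum by 0.33 and than in cerebellum by 0.36, and the probe set of Aldoa and Aldoart1 more than in striatum by 0.33. Outside the interval, Eid3 differed by 0.53 in hippocampus, -0.03 in striatum and 0.05 in cerebellum (adjusted p = 0.230 between hippocampus and striatum), and Nrep by -0.44, 0.01 and -0.06 (adjusted p = 0.229). Both were chosen for their difference in hippocampus, so that these values are a description. The fit above treated all arrays as separate. However, the wt and Dup/+ striatum arrays share title numbers with those of hippocampus in 6 cases, and some cerebellum arrays do so too. These were taken here as the same mice. The deviations of the hippocampus and striatum arrays of a shared number correlated only at -0.07 to 0.22, so that this identity is an assumption.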

How the data were processed

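Whole-transcript Affymetrix arrays (Mouse Gene ST) measured the total RNA of each dissected tissue, with a separate array for each sample. The authors processed the scans with Affymetrix Expression Console and quantile normalized 44 brain and 12 liver arrays separately, and the deposited values were read as log2 signals from their range, 0.570 to 13.6. Array medians of the brain ran from 4.82 to 4.87. As in the study's methods, probe sets were kept where the highest brain signal reached the median of all brain values, 4.85, and the variance over brain arrays passed the 25th percentile, which left 19389 of 41155. Of all probe sets, 23521 list 1 gene, 1820 several and 15814 none here. Dup/+ (n = 4) and wt (n = 8) were compared with limma 3.58.1 in R 4.3.3 (lmFit, eBayes) with Benjamini-Hochberg adjustment over all kept probe sets, and regions in 1 fit of 33 arrays. The scripts were tested on simulated data. Nothing in the labels ties the arrays to litters or dissection days, so dependence between arrays through these could not be modelled. The p-values rest on the spread between arrays, which holds mouse, dissection and array variation together. Precision is limited by how few arrays there are. Alternatives were no filter, a filter over 12 arrays, other models, plate as a block, a striatal covariate and leaving out each array.

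Named genes were all interval genes, the 10 of smallest p outside it in each fit, up to 4 members of smallest p of each list, the 10 genes furthest above on Dup/+ 47 and the 3 nearest flanking genes. The members and all 32 lists were chosen with earlier results of these data known.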

Additional observations from a re-analysis of the deposited data

Results flagged for a closer look

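Of 130 sets of values tested within a group, 15 held an array whose gap to the others was large against the range of its group. Chance gives about 1 in 20 for separate sets, but these sets share arrays, so that the count cannot be judged by that rate. The 15 include the striatal marker mean, by which Dup/+ 47 was singled out. The striatal marker mean was 8.54 on Dup/+ 47, against 6.04 to 6.05 on the other Dup/+ arrays. The potassium channel mean was 8.11 on Dup/+ 47, against 8.003 to 8.02 on the others. On Dup/+ 21 the p38 pathway mean was 7.83, against 7.72 to 7.74, Ypel3 was 8.65, against 8.45 to 8.48, and Rftn2 was 6.53, against 6.17 to 6.22. The respiratory chain mean was 8.85 on Dup/+ 18, against 8.94 to 8.95.

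Among the wt arrays, wt 16 had a glutamate receptor mean of 8.80, against 8.65 to 8.70 on the others, a ribosomal protein mean of 6.74, against 6.85 to 6.95, and a respiratory chain mean of 8.76, against 8.89 to 8.96. On wt 17 the GABA synapse mean was 9.28, against 9.16 to 9.20, and Sult1a1 was 5.18, against 5.45 to 5.603. On wt 29 the interferon-stimulated mean was 5.65, against 5.25 to 5.37, and Cdipt was 10.26, against 9.91 to 10.05. Tbx6 was 5.67 on wt 49, against 4.65 to 5.08, and Asphd1 was 6.15 on wt 6, against 6.44 to 6.64. What set these arrays apart was not tested.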

How the results depend on the processing

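At 5% FDR the 2 interval calls became 0 with the filter worked out over the 12 arrays, 0 with the plate as a block and 3 with the striatal marker mean as a covariate. They became 8 with a variance trend and robust moderation and 10 with all 16 hippocampus arrays. A slope on copy number over those 16, which adds the Del/+ arrays to the contrast, gave 24. Leaving out 1 array gave 0 to 3 interval calls and 0 to 1 outside. Outside the interval the slope called 3 (A930024E05Rik, Ranbp17 and Upk1b), and the fit without Dup/+ 21 called Ifit1bl1. The interval mean differed by 0.34, by 0.40 over the genes kept by the filter, and by 0.32 to 0.36 leaving out 1 array. The striatal marker mean differed by 0.67, and by 0.04 to 0.88 leaving out 1 array, the lowest without Dup/+ 47. Signs turned for 3 genes near 0. AI467606 gave 0.15 with the slope and -0.0603 to 0.0585 leaving out 1 array, Qprt 0.10 with the slope, 0.0019 with the striatal covariate and -0.118 to 0.00070 leaving out 1 array, and Tbx6 -0.0463 to 0.128 leaving out 1 array. Of the other alternatives for single genes, 590 kept direction and side of the threshold, 31 newly passed and 26 no longer passed. The causes were not tested. No paired analysis was possible because Dup/+ and wt share no mouse numbers. Between hippocampus and striatum 6 mouse numbers are shared, and some numbers are shared with cerebellum as well. The mouse number as a replicate block (correlation 0.0210) left 0 calls.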
